A study of Mus musculus with 2 samples.

Results

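Wide unique peaks are stretches of open chromatin of 2000 bp or more that were listed for only one of 2 populations of mouse adipocyte progenitors. They were chosen by width alone, taken as the end minus the start of each row of the deposited lists. By this rule 442 of the 8002 PDGFRα peaks and 715 of the 14483 CD137 peaks were wide, 1157 of 22485 in all. The other 7560 PDGFRα peaks and 13768 CD137 peaks are called narrower below. ATAC-seq, which maps open chromatin by letting a transposase cut it and attach adapters, was run on 1 library for each population.

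The first population was labelled PDGFRa+ (with CD140+ in its title) and the second CD137+. Both came from adipose tissue of C57BL/6 mice, were isolated by magnetic sorting from SAT or VAT, received an adipogenic cocktail and were then given dexamethasone, a synthetic glucocorticoid, at 1 µM. Which depot gave which cells, how many animals were used and their age are not in the labels. The extraction protocol speaks of embryonic cells and the zona pellucida, which does not match adipose tissue. No library without dexamethasone was analysed here, so none of the values is an effect of the drug. The lists carry no height, score or read number, so the depth is unknown, and a deeper library or another calling threshold can widen peaks.

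PDGFRα is a receptor tyrosine kinase of stromal progenitors in fat, and CD137 is a receptor of the tumour necrosis factor family used as a marker of beige progenitors. An accessible stretch longer than a single nucleosome-free site can form where several neighbouring regulatory sites are open together, as over the start and first exon of a strongly transcribed gene or over a group of enhancers. Immediate early genes are short genes transcribed within minutes of a stimulus without new protein synthesis, and many of them encode transcription factors such as JUN, FOS and the NR4A receptors. Matrix genes encode the collagens, laminins and proteases that progenitors use to build and remodel the tissue around them.

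Start windows of 6 genes are shown, 3 for each list. Among genes with a window in the RefSeq table used here, they belong to the widest up5k peaks (a deposited class of peak place) centred within 1 kb of the gene's start. Each window runs from 250 bases before to 50 bases after the start, was taken from RefSeq on GRCm38.p6 (mm10), and is written 5′ to 3′ on the strand of its gene. All 6 lay inside their wide peak. The first 3 belong to PDGFRα peaks, at Ang (chr14:51090827-51091126, plus strand), which encodes the ribonuclease angiogenin, Tns2 (chr15:102102684-102102983, plus strand), which encodes a tensin of focal adhesions, and Wnt9a (chr11:59306680-59306979, plus strand), which encodes a WNT ligand. The others belong to CD137 peaks, at Pdgfa (chr5:138994895-138995194, minus strand), which encodes a ligand of PDGFRα, Jun (chr4:95052173-95052472, minus strand), which encodes a subunit of AP-1, and Pqlc3 (chr12:17000069-17000368, minus strand). The Pdgfa window lies inside the RefSeq span of its gene (chr5:138976014-139000792), so the start shown is not the outermost one. Capitals mark, on either strand, the SP1 box GGGCGG, the CCAAT box CCAAT, the E-box CACGTG and the NFkB site. Each match is a description of letters and not a site of binding.
Ang: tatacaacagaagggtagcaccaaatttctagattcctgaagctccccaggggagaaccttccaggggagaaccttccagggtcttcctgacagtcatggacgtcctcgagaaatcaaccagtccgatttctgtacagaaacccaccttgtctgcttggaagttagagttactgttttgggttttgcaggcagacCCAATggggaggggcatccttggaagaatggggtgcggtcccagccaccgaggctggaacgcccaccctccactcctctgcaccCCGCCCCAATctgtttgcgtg
Tns2: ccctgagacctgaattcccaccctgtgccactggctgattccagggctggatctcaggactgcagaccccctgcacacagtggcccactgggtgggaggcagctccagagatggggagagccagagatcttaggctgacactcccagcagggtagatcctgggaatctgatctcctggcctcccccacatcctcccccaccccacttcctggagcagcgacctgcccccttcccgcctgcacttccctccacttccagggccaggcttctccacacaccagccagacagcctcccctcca
Wnt9a: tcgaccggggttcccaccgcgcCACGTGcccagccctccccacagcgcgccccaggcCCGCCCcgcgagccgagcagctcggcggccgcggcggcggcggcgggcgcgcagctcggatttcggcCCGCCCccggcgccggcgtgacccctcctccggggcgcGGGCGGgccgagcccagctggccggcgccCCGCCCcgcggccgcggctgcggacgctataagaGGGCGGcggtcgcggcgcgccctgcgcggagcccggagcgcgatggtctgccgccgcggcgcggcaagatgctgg
Pdgfa: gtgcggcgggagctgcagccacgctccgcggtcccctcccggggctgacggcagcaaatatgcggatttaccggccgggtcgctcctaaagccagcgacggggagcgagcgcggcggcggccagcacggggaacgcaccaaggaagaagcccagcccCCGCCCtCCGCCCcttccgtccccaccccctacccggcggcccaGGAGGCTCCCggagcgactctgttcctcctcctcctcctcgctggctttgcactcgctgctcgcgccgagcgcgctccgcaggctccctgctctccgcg
Jun: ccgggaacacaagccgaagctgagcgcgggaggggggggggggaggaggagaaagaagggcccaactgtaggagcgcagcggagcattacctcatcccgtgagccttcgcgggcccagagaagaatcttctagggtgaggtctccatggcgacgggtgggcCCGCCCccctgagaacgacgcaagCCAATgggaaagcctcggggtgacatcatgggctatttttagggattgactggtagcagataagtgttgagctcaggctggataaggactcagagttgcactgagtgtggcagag
Pqlc3: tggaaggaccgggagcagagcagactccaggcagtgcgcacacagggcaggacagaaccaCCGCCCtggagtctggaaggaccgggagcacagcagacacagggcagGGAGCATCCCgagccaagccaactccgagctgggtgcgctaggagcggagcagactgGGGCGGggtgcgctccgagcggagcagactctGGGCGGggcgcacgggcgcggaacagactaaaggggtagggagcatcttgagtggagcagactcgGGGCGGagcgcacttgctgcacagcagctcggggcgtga

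The 3 PDGFRα windows differed in composition. The Wnt9a window had 83.3% G and C and an observed over expected CpG ratio of 1.11, with 5 SP1 boxes and 1 E-box. The Tns2 window had 63.7% G and C but a CpG ratio of 0.0708 and none of the marked motifs. The Ang window had 54.7% G and C, a CpG ratio of 0.358, 2 CCAAT boxes and 1 SP1 box, which overlaps one of the CCAAT boxes. Among the CD137 windows, Pqlc3 held 4 SP1 boxes and 1 NFkB site, Pdgfa 2 and 1, and Jun 1 SP1 box and 1 CCAAT box. Over all 21262 RefSeq start windows of the same length, 46.2% held the SP1 box, 38.2% the CCAAT box, 9.25% the NFkB site and 7.84% the E-box.

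Wide peaks made up 5.52% of the PDGFRα list and 4.94% of the CD137 list (Wilson 95% intervals 5.04 to 6.05% and 4.60 to 5.30%). The difference for PDGFRα minus CD137 was 0.587 percentage points, with an interval that includes 0 (Newcombe, -0.0158 to 1.21). With 1 library a group no p-value can be had, and this and every other interval covers counting error only. The widths themselves chose the peaks and are given as a description. The median wide peak was 2349 bp (interquartile range 2151 to 2722 bp) in the PDGFRα list and 2335 bp (2141 to 2783 bp) in the CD137 list, and the widest was 7776 bp in the PDGFRα list and 7857 bp in the CD137 list. Most were near the limit, with 276 PDGFRα peaks (62.4%) and 447 CD137 peaks (62.5%) below 2500 bp. Widths of 3000 bp or more were reached by 70 PDGFRα and 139 CD137 peaks, and widths of 5000 bp or more by 10 PDGFRα and 20 CD137 peaks. The wide peaks covered 1149 kb, 11.0% of the length of the PDGFRα list, and 1876 kb, 10.03% of that of the CD137 list.

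**Figure D1:**
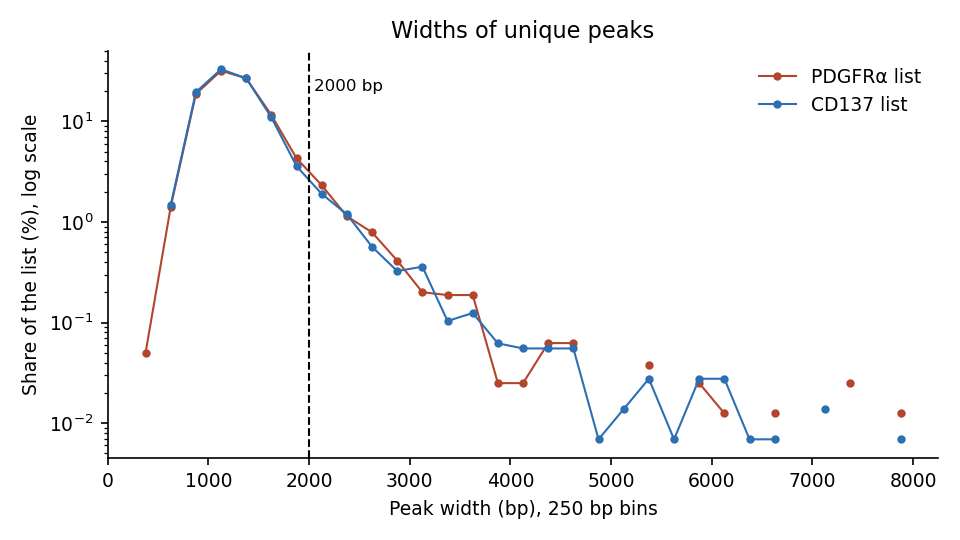
Share of each list (percent, log scale) against peak width in bins of 250 bp for the PDGFRα list (red) and the CD137 list (blue), with empty bins left out and a dashed line at 2000 bp. Both lists thin out past 2000 bp, unevenly where the bins hold few peaks, to a widest peak of 7776 bp in the PDGFRα list and 7857 bp in the CD137 list.

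The limit of 2000 bp falls on a slope without a gap. The PDGFRα peaks just inside it were at the phosphodiesterase gene Pde1a (2000 bp), at Ttc28 (2000 bp) and at the ephrin receptor gene Ephb4 (2001 bp), and those just outside were at Bcl11a (1998 bp) and at a pair of intergenic places (1997 and 1998 bp). The CD137 peaks just inside were an intergenic one (2000 bp), one at the collagen gene Col6a3 (2001 bp) and one at the chromatin remodeller gene Chd9 (2002 bp). Those just outside were at Soga1 (1998 bp), Nav1 and the apolipoprotein gene Apoe (both 1 bp below the limit).

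The place classes deposited with the peaks, which were not used to choose them, differed between wide and narrower peaks in the same way in both lists. Wide peaks were more often in the classes up5k, down5k and exon and less often intergenic or intronic. In the PDGFRα list, 103 of 442 wide peaks (23.3%) were up5k, against 782 of 7560 narrower peaks (10.3%), a difference of 13.0 points (Newcombe 95% interval 9.19 to 17.2). Among CD137 peaks, 148 of 715 wide ones (20.7%) were up5k, against 1103 of 13768 narrower peaks (8.01%), a difference of 12.7 points (9.84 to 15.8). The class down5k held 13.6% of wide and 7.22% of narrower PDGFRα peaks (6.35 points, 3.41 to 9.91), and 15.0% of wide and 6.81% of narrower CD137 peaks (8.15 points, 5.69 to 11.0). Exons held 13.1% of wide and 8.89% of narrower PDGFRα peaks (4.23 points, 1.32 to 7.76), and 10.3% of wide and 7.002% of narrower CD137 peaks (3.35 points, 1.28 to 5.83).

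Intergenic peaks made up 24.9% of wide and 39.5% of narrower PDGFRα peaks, a difference of -14.6 points (-18.5 to -10.2). They made up 27.8% of wide and 46.2% of narrower CD137 peaks, a difference of -18.4 points (-21.7 to -14.9). Intronic peaks were 25.1% of wide and 34.1% of narrower PDGFRα peaks (-8.97 points, -12.9 to -4.60) and 26.2% of wide and 31.9% of narrower CD137 peaks (-5.78 points, -8.97 to -2.35). The ranking behind the class of a peak that touches several features was not given in the sources used here, and a longer peak touches more of them. The peak centre, which width does not move by itself, was therefore also used.

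**Figure D2:**
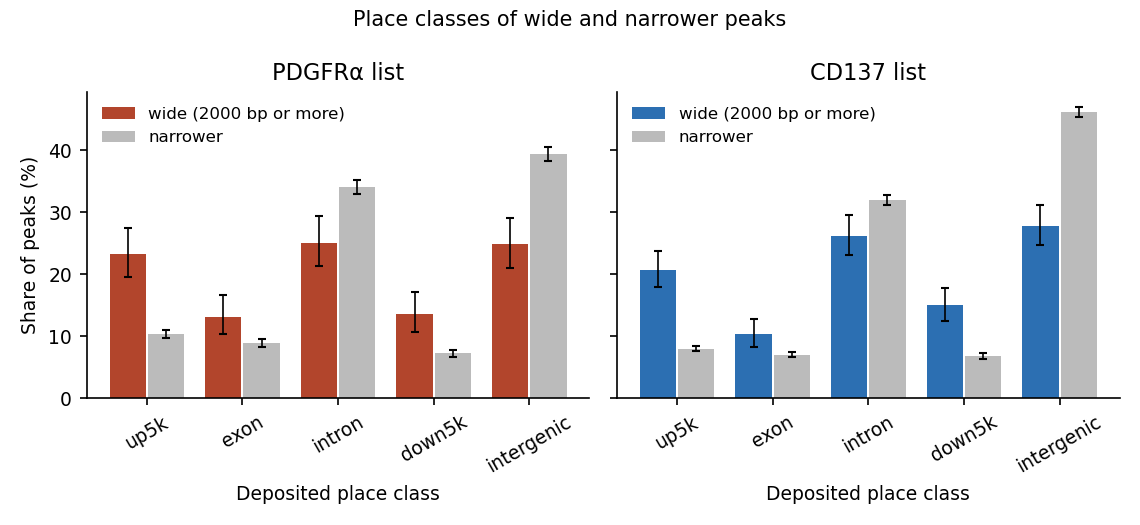
Share of peaks (percent) in each deposited place class for wide peaks (coloured bars) and narrower peaks (grey bars) of the PDGFRα list (left) and the CD137 list (right), with Wilson 95% intervals. The up5k bar is 23.3% for wide and 10.3% for narrower PDGFRα peaks and 20.7% for wide and 8.01% for narrower CD137 peaks, and the intergenic bar is lower for wide peaks in both lists.

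Seen from the classes, 11.6% of all up5k peaks of the PDGFRα list and 11.8% of those of the CD137 list were wide. Among intergenic peaks 3.56% of PDGFRα and 3.03% of CD137 ones were, and among intronic peaks 4.13% of PDGFRα and 4.08% of CD137 ones. The name up5k does not mean that a wide peak lay outside the gene. The centre was inside a protein-coding gene for 66 of 103 wide up5k peaks in the PDGFRα list (64.1%) and for 92 of 148 in the CD137 list (62.2%). Whether up5k and down5k follow the strand of the gene was not tested, so up5k is not read as the start side. At Fosb the up5k peak (chr7:19299620-19302673) lay at lower positions than the down5k peak (chr7:19306729-19311185), and the same order was seen at Socs3.

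By centre, 311 of 442 wide PDGFRα peaks (70.4%) lay at a protein-coding gene, that is inside it or at most 5 kb away, against 57.3% of narrower ones, a difference of 13.1 points (8.53 to 17.3). In the CD137 list 496 of 715 wide peaks did (69.4%), against 50.3% of narrower ones, a difference of 19.1 points (15.5 to 22.5). A gene end, either the start or the stop, lay less than 1 kb from the centre of 16.7% of wide and 5.87% of narrower PDGFRα peaks (10.9 points, 7.63 to 14.7), and for 14.0% of wide and 4.61% of narrower CD137 peaks (9.38 points, 7.003 to 12.1). The median centre was 9.27 kb from the nearer end of a gene for wide PDGFRα peaks, against 27.0 kb for narrower ones, and 15.9 kb for wide CD137 peaks, against 39.8 kb for narrower ones.

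The shift toward genes went on past the limit and did not begin at it. The up5k share of PDGFRα peaks was 8.93% below 1000 bp, 9.52% from 1000 to below 1500 bp, 15.2% from there to below 2000 bp, 21.2% from there to below 3000 bp and 34.3% at 3000 bp or more. For CD137 peaks the shares in the same order of width were 6.53%, 7.94%, 10.4%, 16.7% and 37.4%. The intergenic share was 42.0% of the shortest and 14.3% of the longest PDGFRα peaks, and 49.5% of the shortest and 14.4% of the longest CD137 peaks. At 3000 bp or more, 60 of 70 PDGFRα peaks (85.7%) were centred at a protein-coding gene.

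**Figure D3:**
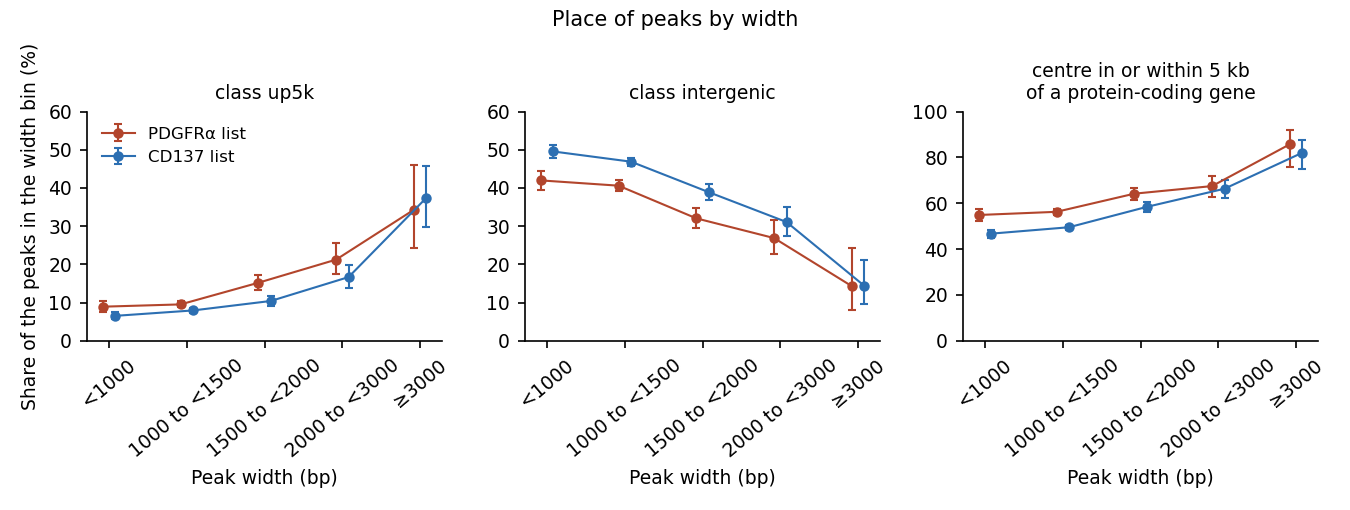
Share of peaks (percent) that were up5k (left), intergenic (middle) or centred at a protein-coding gene, inside it or at most 5 kb away (right) in 5 bins of peak width, for the PDGFRα list (red) and the CD137 list (blue), with Wilson 95% intervals. The up5k share reaches 34.3% of PDGFRα and 37.4% of CD137 peaks of 3000 bp or more, where the intergenic share is 14.3% for PDGFRα and 14.4% for CD137.

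Between the lists, narrower peaks differed in place and no difference was resolved for wide ones. Narrower PDGFRα peaks were intergenic less often than narrower CD137 peaks, a difference of -6.78 points (39.5% of PDGFRα and 46.2% of CD137 peaks, -8.16 to -5.40). For wide peaks the difference was -2.95 points (24.9% of PDGFRα and 27.8% of CD137 peaks, -8.04 to 2.34). The share at a protein-coding gene differed by 0.991 points between wide PDGFRα and wide CD137 peaks (-4.50 to 6.34) and by 7.01 points between the narrower ones (5.62 to 8.40). The intervals for wide peaks are broad and do not show that the lists were alike, and whether the wide and the narrower differences themselves differ was not tested.

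The X chromosome held few wide peaks. Of 185 PDGFRα peaks on X, 2 were wide (1.08%, exact 95% interval 0.131 to 3.85%), and of 319 CD137 peaks 4 were (1.25%, 0.343 to 3.18%). The highest shares on an autosome were 8.60% on chromosome 6 in the PDGFRα list (38 of 442 peaks) and 7.26% on chromosome 8 in the CD137 list (52 of 716 peaks).

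Shares of peaks near gene starts, and the composition of start windows as a set, were compared between wide and narrower peaks for the PDGFRα list only. RefSeq start windows, which carry the strand, exist here for 81.1% of the genes at its wide peaks off chromosome 18, but for only 78.0% of those at wide CD137 peaks, under the minimum of 80%, so the same comparison is void there, and the 3 CD137 windows shown above stand as single examples. Centres within 1 kb of a start were found for 60 of 433 wide peaks (13.9%), against 269 of 7296 narrower peaks (3.69%), a difference of 10.2 points (7.20 to 13.8). Of 109 wide peaks centred within 5 kb of a start, 73 lay on its downstream side (67.0%, Wilson 57.7 to 75.1%), with a median of 500 bp into the gene. Of 572 narrower ones 299 did (52.3%, 48.2 to 56.3%), with a median of 26.5 bp.

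**Figure D4:**
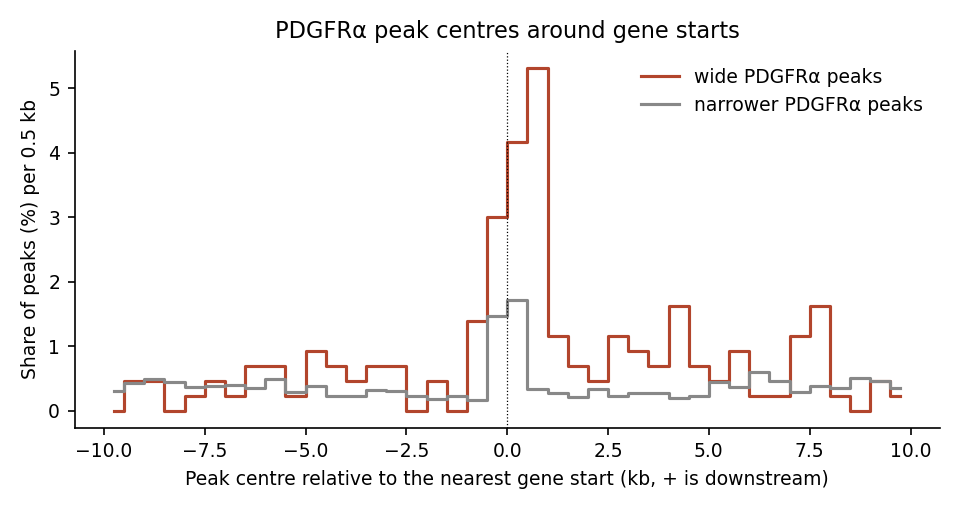
Share of PDGFRα peaks (percent per 0.5 kb) by the distance in kb of the peak centre from the nearest gene start, with positive values downstream, for wide peaks (red) and narrower peaks (grey) off chromosome 18. Wide peaks gather around and just downstream of the start, where 13.9% of them and 3.69% of the narrower ones lie within 1 kb.

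The 60 start windows nearest to wide PDGFRα peaks had a median of 61.7% G and C and a median CpG ratio of 0.647. The 269 windows of narrower peaks had 59.7% and 0.565, and all 21262 windows 56.3% and 0.567. The interquartile ranges of the CpG ratio overlap, at 0.329 to 0.858 for wide and 0.338 to 0.796 for narrower peaks. The SP1 box was in 58.3% of the windows of wide peaks (exact 95% interval 44.9 to 70.9%) and in 56.5% of those of narrower peaks. The glucocorticoid receptor hexamer AGAACA was in 5 of 60 (8.33%, 2.76 to 18.4%), in 16.0% of the windows of narrower peaks and in 16.2% of all windows. The TEAD site CATTCC was in 11.7% of the windows of wide peaks, 14.9% of those of narrower peaks and 13.6% of all. The AP-1 site TGANTCA was in 8.33%, 7.43% and 6.99%. None of the 60 windows held the full glucocorticoid response element, which 2 of all 21262 windows held. For each of these motifs the interval for wide peaks includes the share in narrower ones.

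The widest PDGFRα peaks lay at genes of several kinds. The class printed beside a gene goes with the Ensembl ID of its row, which can be that of another gene than the one named by position. At Zfp503, for example, the wide peaks of 7346 and 2789 bp carry different IDs. The first, of 7776 bp (up5k, ENSMUSG00000072115), was centred in both Ang and Rnase4, overlapping genes of ribonucleases, and held the start of Ang. It was followed by Tns2 (7431 bp, up5k), Zfp503, a zinc finger repressor gene (7346 bp, up5k), and Zfp516, known for activating Ucp1 in brown fat (6723 bp, up5k). Hhipl1 had 6099 bp (up5k), Col1a1, which encodes the main chain of type I collagen, 5885 bp (up5k), and Plekhg3 5788 bp (up5k). Slc6a17, a transporter gene, had 5453 bp (exon), H2-Ke6 in the major histocompatibility region 5364 bp (up5k) and Smim41 5339 bp (down5k). Tnfrsf1a, the receptor gene for tumour necrosis factor, had 4724 bp and Flrt2 4697 bp, both up5k. Of these 12 peaks 10 were up5k, and the centre of the peak at Col1a1 lay 636 bp outside the gene.

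Of the 12 widest CD137 peaks at genes, 5 were at immediate early genes, and of the 12 widest PDGFRα ones 0 were. Over peaks of any width at protein-coding genes, 24 of 7416 CD137 and 8 of 4641 PDGFRα peaks were at these genes. The 12 were picked by width and the gene list was written with earlier results known. These counts are a description, and the difference between the lists was not tested. Ier2, an immediate early gene, had 7857 bp (up5k), Ftl1, which encodes the ferritin light chain, 7144 bp (up5k), and Sgk1, a kinase gene induced by serum and glucocorticoids, 7102 bp (exon). Dlc1, a tumour suppressor gene, had 6673 bp (exon), the orphan receptor gene Nr4a1 6256 bp (up5k) and the AP-1 gene Jund 6195 bp (up5k). The peak near the polyubiquitin gene Ubb had 6121 bp (up5k) and that near Mcl1, which encodes a survival factor of the BCL2 family, 6109 bp (down5k), with centres 4231 bp and 3297 bp outside the genes. Ndufa4l2, a hypoxia-induced gene, had 6103 bp, the repressor gene Bcl6 5957 bp, Rin1 5943 bp and the scaffold gene Ahnak 5914 bp, all up5k. The peak named for Rin1 was centred 3430 bp outside it.

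A wide peak can hold a whole gene. Among CD137 peaks 6 did so for Ier2 (gene length 1522 bp), Ftl1 (1943 bp), S100a4 (2276 bp), Gadd45a (2312 bp), Pycard (2495 bp) and Jund (2878 bp). In the PDGFRα list 3 did, for the histone gene H4c8 (435 bp), Gm30599 (1657 bp) and H2-Ke6 (2023 bp). Wide peaks with no protein-coding gene at the centre or up to 5 kb from it numbered 131 in the PDGFRα list and 219 in the CD137 list, of which 52 PDGFRα and 74 CD137 peaks lay at a gene of another type. The widest intergenic peaks were 4368 bp on chromosome 9 in the PDGFRα list (chr9:44485499-44489867), centred within the RefSeq span of Bcl9l, and 4709 bp on chromosome 2 in the CD137 list (chr2:30716227-30720936).

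Wide peaks were found at 307 of the 3325 protein-coding genes with a PDGFRα peak (9.23%) and at 493 of the 4384 with a CD137 peak (11.2%). A peak centred in overlapping genes counts for each of them. A CD137 peak of 2350 bp does so for many overlapping genes of the Pcdhg cluster on chromosome 18. These shares are the background for the kinds of genes that follow, each taken among the members with a unique peak of that list, since the lists say nothing of sites open in both populations. Genes share peaks and are not replicates, so the exact binomial 95% intervals describe these lists only. The gene lists were also written with earlier results of these data known, so the ranking of kinds is not independent of the data.

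Immediate early genes had wide peaks most often among the kinds with 5 or more such members, in both lists. Of 7 with a PDGFRα peak, 5 had a wide one (71.4%, 29.0 to 96.3%), and of 17 with a CD137 peak, 14 did (82.4%, 56.6 to 96.2%). Of all 8 PDGFRα peaks at these genes 5 were wide (62.5%, 24.5 to 91.5%), against 311 of 4641 PDGFRα peaks at any protein-coding gene (6.70%). Of all 24 CD137 peaks 19 were wide (79.2%, 57.8 to 92.9%), against 496 of 7416 (6.69%). The other 50 of the 73 genes in the list had no unique peak. The wide CD137 peaks were also longer, with a median of 4470 bp for the widest peak of each such gene, against 2367 bp over all genes with a wide CD137 peak. In the PDGFRα list the median was 2481 bp for these genes and 2404 bp over all. The difference from other genes was 71.4 points in the CD137 list and 80.1 points when only peaks of 3000 bp or more were counted, but in the PDGFRα list it was 62.3 points and 12.5 points at 3000 bp, where Hes1 alone was left.

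The PDGFRα genes were Hes1, a target and effector of Notch signalling (3596 bp, up5k), the growth regulator Myc (2566 bp, down5k) and Cebpb, a driver of early adipogenesis (2481 bp, up5k). The others were the chemokine gene Ccl2 (2161 bp, down5k) and the orphan receptor gene Nr4a3 (2070 bp, intron). Egr4 and Sgk1 had narrower PDGFRα peaks only, of 1089 and 1201 bp.

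The CD137 genes encode transcription factors, feedback regulators and proteins of survival or growth arrest. Among transcription factors, Nr4a1 (6256 bp and a second wide peak of 2032 bp), Jund (6195 bp) and Jun (5283 bp) came first, then Fosb (4456 bp and 3053 bp) and Klf6 (3661 bp). Among regulators of signalling were the cytokine inhibitor gene Socs3 (4483 and 2846 bp), the NF-κB regulator gene Nfkbiz (3901 bp) and the kinase gene Sik1 (3294 bp). Sgk1 had 3 wide peaks, of 7102, 2473 and 2294 bp. Mcl1, Ier2, the stress genes Gadd45a (4161 bp) and Gadd45b (3723 bp) and the antiproliferative gene Btg2 (4135 bp) made up the rest. Dusp6 (1726 bp), Egr2 (832 bp) and Fosl1 (1550 bp) had narrower CD137 peaks only.

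No immediate early gene had a wide peak in both lists. None of the 5 with a wide PDGFRα peak had a CD137 peak of any width, and of the 14 with a wide CD137 peak only Sgk1 had a PDGFRα peak. Such separation was common among all genes. Of the 307 genes with a wide PDGFRα peak, 34 had a wide CD137 peak (11.1%) and 163 had no CD137 peak, and of the 493 genes with a wide CD137 peak, 34 had a wide PDGFRα peak (6.90%) and 275 had no PDGFRα peak. With 5 PDGFRα and 14 CD137 members, the absence of shared ones is not a result about immediate early genes. Because the lists hold unique peaks only, they do not tell how open these genes were in the other population. Among genes with 1 unique peak only the share stood at 59.6 points over other such genes in the PDGFRα list and 66.4 points in the CD137 list. Immediate early genes are short, with a median length of 2.47 kb for the PDGFRα and 6.24 kb for the CD137 members, against 65.2 kb for all genes with a PDGFRα peak and 71.0 kb for all with a CD137 peak. The part of gene length in the share was not tested.

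**Figure D5:**
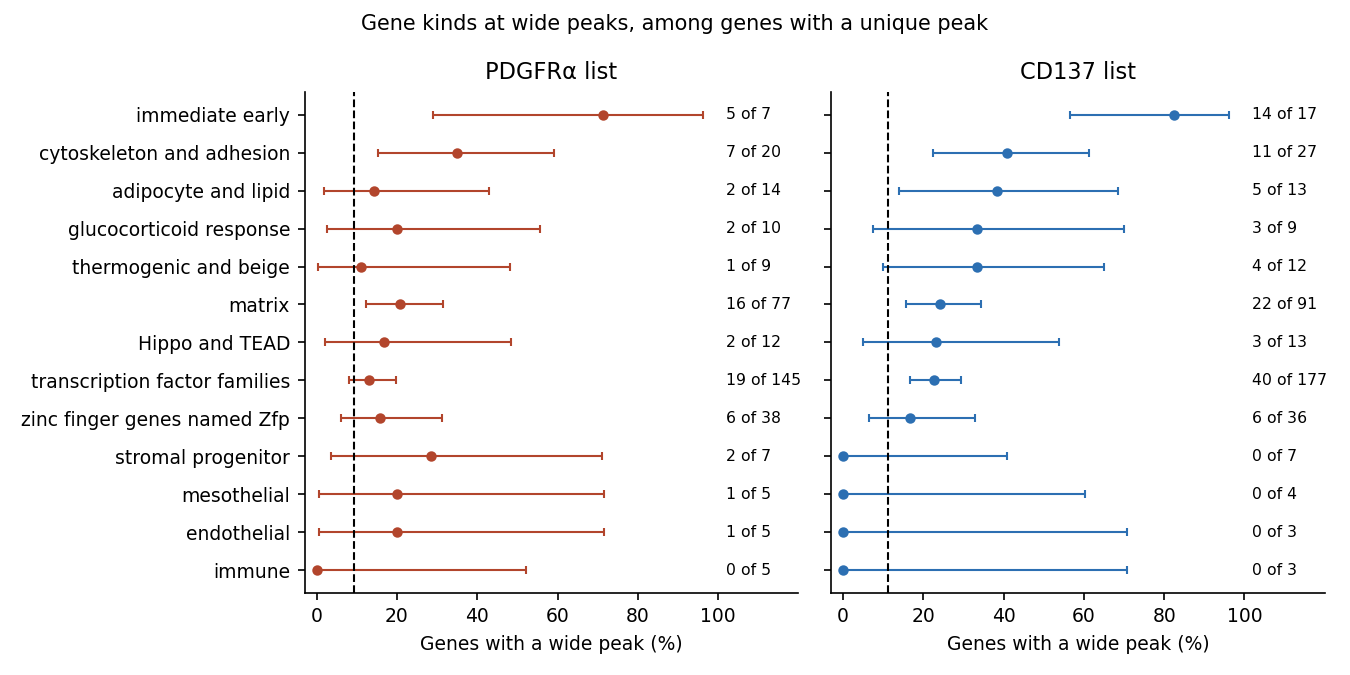
Share of genes with a wide peak (percent) among genes with a unique peak, for 13 kinds of genes in the PDGFRα list (left) and the CD137 list (right), with exact binomial 95% intervals, the counts at the right and a dashed line at the share over all genes (9.23% for PDGFRα and 11.2% for CD137). Immediate early genes sit highest in both lists, at 71.4% for PDGFRα and 82.4% for CD137, and cytoskeleton and adhesion genes are next among kinds with 20 or more members with a peak.

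Genes of the cytoskeleton and cell adhesion followed, with wide peaks at 7 of 20 in the PDGFRα list (35%, 15.4 to 59.2%) and 11 of 27 in the CD137 list (40.7%, 22.4 to 61.2%). The PDGFRα genes included Tns2, the integrin genes Itga5 (4450 bp) and Itgav (2164 bp), Lpp (2998 bp), Parva (2184 bp) and Dlc1 (2095 bp). The CD137 genes included Dlc1 (6673 bp), Ahnak (5914 bp), the filamin gene Flnc (4675 bp), the actin genes Actb (4489 bp) and Actg1 (3502 bp), and Tns1 (4177 bp). Dlc1 was the one member of this gene list with a wide peak in both lists of peaks. Cytoskeletal genes outside the gene list, such as Capzb and Septin9, also had both and are given below. The difference from other genes was 25.9 points in the PDGFRα list and 29.7 points in the CD137 list. In the PDGFRα list it was 55.1 points at a limit of 1500 bp and 8.19 points at 3000 bp. Among genes with 1 unique peak only it was 26.2 points in the PDGFRα list (4.91 to 57.5) and 32.9 points in the CD137 list (10.6 to 59.3). These genes are long, with a median of 138.8 kb for PDGFRα and 106.1 kb for CD137 members, against 65.2 and 71.0 kb over all. The part of gene length in the share was not tested here either.

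Matrix genes had wide peaks at 16 of 77 in the PDGFRα list (20.8%, 12.4 to 31.5%) and 22 of 91 in the CD137 list (24.2%, 15.8 to 34.3%). The widest PDGFRα ones were at Col1a1 (5885 bp), the membrane protease gene Mmp14 (3218 bp), the basement membrane genes Col4a1 (3126 bp), Lama4 (2994 bp) and Col4a2 (2918 bp), and the protease gene Adamts9 (2683 bp). Col3a1 (2545 bp), Fbn1 (2489 bp) and Col14a1 (2174 bp) were also among them. Among the widest CD137 ones were those at the proteases Adamts1 (5371 bp), Adamts14 (3700 bp) and Adamts2 (2797 bp), the fibulin gene Fbln1 (2834 bp) and the laminin gene Lama4 (2589 bp). Most of these peaks were below 3000 bp. With peaks of 3000 bp or more, the difference from other genes was 2.08 points (-0.535 to 9.04) in the PDGFRα list and 0.758 points (-1.47 to 6.73) in the CD137 list, against 11.8 points in the PDGFRα list and 13.2 points in the CD137 list at 2000 bp. Among genes with 1 unique peak only it was 4.41 points in the PDGFRα list (-1.82 to 15.9) and 14.9 points in the CD137 list (5.34 to 28.2). Matrix genes are also long, with a median of 114.0 kb for PDGFRα and 113.9 kb for CD137 members.

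Among transcription factor families outside the genes named Zfp, 19 of 145 genes had a wide peak in the PDGFRα list (13.1%, 8.08 to 19.7%), close to the background of 9.23% (4.05 points over other genes, -0.624 to 10.6). The difference was 8.78 points (1.07 to 17.1) at a limit of 1500 bp and 6.44 points (0.927 to 14.7) among genes with 1 unique peak only. In the CD137 list 40 of 177 did (22.6%, 16.7 to 29.5%), against 11.2% (11.8 points over other genes, 6.21 to 18.6). The CD137 difference was 20.4 points at a limit of 1500 bp and 6.17 points at 3000 bp. Without their immediate early members the counts were 15 of 140 in the PDGFRα list (10.7%) and 35 of 170 in the CD137 list (20.6%). The widest PDGFRα ones were Hes1, Wt1, a factor of mesothelium and visceral fat progenitors (3551 bp), Hoxa3 (3453 bp), Mef2d (3009 bp), Zfhx3 (2724 bp) and the inhibitory SMAD gene Smad7 (2681 bp). The widest CD137 ones were Nr4a1, Jund, Bcl6, Jun, the adipogenic regulator Arid5b (4731 bp) and Fosb. Genes named Zfp had wide peaks at 6 of 38 in the PDGFRα list (15.8%) and 6 of 36 in the CD137 list (16.7%).

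The kinds closest to fat cell fate were small. Adipocyte and lipid genes had wide peaks at 2 of 14 in the PDGFRα list, Rxrb (2617 bp) and Cebpb. Of the CD137 members 5 of 13 did (38.5%, 13.9 to 68.4%). They were the early adipogenic factor gene Ebf1 (3912 and 3467 bp), the retinoid receptor gene Rxra (3541 bp), the fatty acid carrier gene Fabp4 (3250 bp), Zfp423 (2926 bp) and Pparg, which encodes the main factor of fat cell formation (2215 bp). Among genes with 1 unique peak only, the difference from other genes in the CD137 list was 5.44 points, against 27.3 points over all.

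Thermogenic and beige genes had wide peaks at 1 of 9 in the PDGFRα list, Zfp516 (6723 and 2177 bp), and at 4 of 12 in the CD137 list, Shox2 (3029 bp), Esrrb (2633 bp), Pparg and Zfp516 (2098 bp). Genes of the glucocorticoid response had them at 2 of 10 in the PDGFRα list, Cebpb and the cortisone reductase gene Hsd11b1 (2035 bp). In the CD137 list 3 of 9 did, Sgk1, Bcl6 and the insulin signalling gene Pik3r1 (3439 bp). Hippo and TEAD genes had them at 2 of 12 in the PDGFRα list, the kinase gene Lats2 (2075 bp) and Wwtr1, which encodes TAZ (2004 bp), and at 3 of 13 in the CD137 list, Amotl2 (3443 bp), Frmd6 (3183 bp) and Vgll3 (2898 bp). Tead1 had narrower peaks only in both lists. Ribosomal protein genes had 0 of 1 in the PDGFRα list and 1 of 2 in the CD137 list.

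Each list of cell type markers had 7 or fewer members with a unique peak, so their shares are rough. The background was 9.23% of genes in the PDGFRα list and 11.2% in the CD137 list. Stromal progenitor markers had a wide peak at 2 of 7 in the PDGFRα list, Tcf21 (2234 bp) and Ly6a (2026 bp), and at 0 of 7 in the CD137 list. Endothelial markers had 1 of 5 in the PDGFRα list, Flt4 (2130 bp), and 0 of 3 in the CD137 list. Mesothelial markers had 1 of 5 in the PDGFRα list, Wt1, and 0 of 4 in the CD137 list, and immune markers had 0 of 5 PDGFRα and 0 of 3 CD137 members. Markers of the early embryo, included because of the extraction protocol, had 0 of 2 in the PDGFRα list and 2 of 4 in the CD137 list. These were Esrrb (2633 bp) and Zp2 (2225 bp, centred 2392 bp outside the gene). The early embryo share in the CD137 list was 38.8 points over other genes (3.78 to 73.8) and rests on these 2 genes. For the other marker lists, and for the early embryo in the PDGFRα list, that interval includes 0. The part of other cell types in the wide peaks was not tested.

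Wide peaks of both lists came together at 34 genes, which are 11.1% of the 307 PDGFRα genes and 6.90% of the 493 CD137 genes. A further 110 PDGFRα and 184 CD137 genes had only narrower peaks of the other list, and 163 PDGFRα and 275 CD137 genes had none. At the widest of them the PDGFRα and CD137 peaks were 6723 and 2098 bp at Zfp516, 2095 and 6673 bp at Dlc1, 5788 and 2177 bp at Plekhg3, and 3458 and 5107 bp at Irf2bp2. At the shared matrix genes the PDGFRα and CD137 peaks were 3126 and 2299 bp at Col4a1, 2994 and 2589 bp at Lama4, 2489 and 2148 bp at Fbn1, 2282 and 2466 bp at Adamtsl1, and 2101 and 2035 bp at Ltbp2, which encodes a latent TGF-β binding protein. Signalling genes with wide PDGFRα and CD137 peaks were the growth factor receptor gene Egfr (2672 bp PDGFRα, 2174 bp CD137), the ligand gene Bmp6 (2604 bp PDGFRα, 2866 bp CD137), the adaptor gene Frs2 (2760 bp PDGFRα, 2124 bp CD137) and the guidance gene Slit3 (2189 bp PDGFRα, 3170 bp CD137). The kinase genes Map4k4, Mast4 and Nek6 and the RAB5 regulator gene Rin3 belonged to them too, with PDGFRα peaks of 2113 to 2436 bp and CD137 peaks of 2104 to 2517 bp. The metabolic genes were hexokinase Hk2 (3395 bp PDGFRα, 2055 bp CD137) and creatine kinase Ckb (2744 bp PDGFRα, 2397 bp CD137). The cytoskeletal genes Capzb, Septin9, Espn, Eml1 and Phldb2 had PDGFRα peaks of 2004 to 2872 bp and CD137 peaks of 2104 to 3127 bp. The remaining ones were Plekha2, Irf2bpl, Msi2, Pear1, Lrrc32, Scrt1, Zmiz1, Cacna1a, Sorcs3 and Fam227b, with widest peaks of 2021 to 3885 bp.

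Several of these pairs were neighbours. Of wide peaks of opposite lists, 27 pairs lay within 5 kb of each other, 20 of them at the same gene, and 0 pairs overlapped. The lists hold unique peaks only, so the absence of overlap may follow from the unstated rule for unique and is not a result. It holds for pairs of wide peaks only. The lowest distance from a wide PDGFRα peak to a CD137 peak of any width was 0 kb, so the lists do touch or overlap somewhere. Whether a close pair is a single open region split by that rule was not tested. No share of pairs at the same gene over narrower peaks is given beside it. The closest was in an intron of Col4a1, where a PDGFRα peak of 3126 bp (chr8:11257844-11260970) and a CD137 peak of 2299 bp (chr8:11261017-11263316) were 0.047 kb apart. At Plekha2 the gap was 0.182 kb, at Frs2 0.487 kb, at Msi2 0.566 kb and at Lama4 0.591 kb. At the S100 cluster a PDGFRα peak at S100a3 (2404 bp) lay 0.444 kb from a CD137 peak at S100a4 (4043 bp). A peak of the other list lay within 5 kb of 16.3% of wide and 10.8% of narrower PDGFRα peaks (5.52 points, 2.29 to 9.31). For CD137 peaks the shares were 13.4% of wide and 5.77% of narrower ones (7.65 points, 5.31 to 10.4). Closeness was not limited to the opposite list. Another peak of the same list lay within 5 kb of 5.88% of wide and 3.92% of narrower PDGFRα peaks (1.97 points, 0.0732 to 4.60). For CD137 peaks these shares were 8.67% of wide and 6.25% of narrower ones (2.425 points, 0.530 to 4.75).

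Some genes had several wide peaks of one list. In the CD137 list 32 genes had 2 or more, and Sgk1 and Capzb had 3. In the PDGFRα list 9 genes had 2, which were Zfp503, Zfp516, Enc1, Fam171a2, Hk2, Frs2, Col4a2, Zfhx3 and Daam2. Genes with a wide PDGFRα peak had a median length of 49.4 kb, against 65.9 kb for genes with only narrower PDGFRα peaks. For CD137 the median was 76.8 kb with a wide peak and 70.7 kb with only narrower ones. The CD137 genes with a wide peak include the many overlapping genes of the Pcdhg cluster that share a peak of 2350 bp. The part of that cluster in the median was not tested.

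A few wide peaks lay at miRNA genes, whose products pair with target RNAs through the seed, bases 2 to 8. A hairpin lay within 5 kb of the centre of 6 of 442 wide PDGFRα peaks (1.36%, Wilson 0.624 to 2.93%), against 42 of 7560 narrower ones (0.556%, 0.411 to 0.750%). The counts were 7 of 715 wide CD137 peaks (0.979%, 0.475 to 2.01%) and 52 of 13768 narrower ones (0.378%, 0.288 to 0.495%). A look at miRNAs was added after the data were seen. The mature sequences from RefSeq on GRCm38.p6 (mm10), each 5′ to 3′ on the strand of its gene with the seed in capitals, are shown for a pair of PDGFRα peaks that each lie at 2 hairpins sharing a seed, and for let-7i, whose hairpin lies inside a PDGFRα peak. The peak of 2215 bp at the repressor gene Hic1 (chr11:75171802-75174017) contains the hairpins of miR-212 and miR-132, and the intergenic peak of 2739 bp (chr6:31065104-31067843) lies 2.01 kb from that of miR-29b-1 and 2.36 kb from that of miR-29a.
mmu-miR-212-3p: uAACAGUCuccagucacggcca
mmu-miR-132-3p: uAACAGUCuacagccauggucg
mmu-miR-29a-3p: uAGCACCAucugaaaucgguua
mmu-miR-29b-3p: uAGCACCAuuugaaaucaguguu
mmu-let-7i-5p: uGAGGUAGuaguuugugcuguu

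miR-212-3p and miR-132-3p share the seed AACAGUC, and miR-29a-3p and miR-29b-3p share AGCACCA. The miR-29 family is known for targeting collagen transcripts, and let-7 for restraining growth genes. Other hairpins inside wide PDGFRα peaks were those of miR-219a-1 and miR-219c at H2-Ke6 and miR-5135 at Plekhg3, and miR-22 lay 2.90 kb from the peak at Tlcd2. Near wide CD137 peaks lay, among others, miR-196b at Hoxa10 (2.99 kb), miR-191 and miR-425 at Dalrd3 (0.855 and 0.386 kb) and miR-3089 (0.274 kb), with only the hairpin of miR-7660 inside a peak.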

How the data were processed

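Each library came as 1 deposited list of peaks the authors call unique, with a chromosome, start, end, Ensembl ID and place class per row, per the file headers. These base positions are the values used, and widths are end minus start. The submitters' processing notes name CASAVA 1.8 and mm10. Left unstated, and so not given in the sources used here, were the aligner, any read shift for the transposase, the peak caller and its threshold, the rule for unique, and whether starts count from 0 or 1. These settings can change widths. Wide means 2000 bp or more.

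Centres were assigned to the protein-coding RefSeq gene (GRCm38.p6, 21896 genes) holding them, or else to the nearest within 5 kb. As a check of the build, 95.5% of wide intronic PDGFRα and 96.3% of wide intronic CD137 peaks were centred in a gene, and 46.8% and 47.1% once positions were moved by 3 Mb. Genes were named by position, since the RefSeq table gives no Ensembl IDs. A deposited class beside a gene name can therefore refer to another gene. Distances between peaks run from edge to edge.

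Shares carry Wilson or, for genes, motifs and chromosomes, exact binomial 95% intervals, and differences Newcombe intervals. No p-value was computed. The 15 gene lists and the peaks were chosen with earlier results of these data known. Named genes are those of the 12 widest peaks per list, all immediate early genes with a wide peak, genes wide in both lists, genes with the most wide peaks, up to 6 members of each other gene list by width and the 3 peaks either side of the limit. A few further members of the matrix list, the genes with 2 wide peaks and those of the Pcdhg cluster were named after their values were seen. A gene that the rule picks is not reported here. Alternatives covered the width limit, the narrower set, chromosomes, gene windows, assignment and genes with 1 peak. Assignment was run on simulated centres drawn inside genes, which checks the code only. Newcombe intervals were run on simulated shares of large groups, not on groups as small as the gene kinds. The tools were Python 3.11.15, scipy 1.17.1, numpy 2.4.6, matplotlib 3.10.9 and pandas 2.3.3.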

Additional observations from a re-analysis of the deposited data

Results flagged for a closer look

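Stromal progenitor markers differed in direction between the lists. Their share with a wide peak minus that of other genes was 19.4 points in the PDGFRα list (2 of 7 members) and -11.3 points in the CD137 list (0 of 7 members). The intervals both include 0 (-0.997 to 54.9 for PDGFRα and -12.2 to 24.2 for CD137), and the difference between the lists was not tested. At a limit of 3000 bp the PDGFRα value was -1.87 points.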

How the results depend on the processing

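Every value below is a difference in percentage points. With the limit at 1500 bp and at 3000 bp, the wide share for PDGFRα minus CD137 was 1.88 and -0.0850. Wide minus narrower, the up5k share was 7.92 and 23.4 in the PDGFRα list and 5.46 and 29.1 in the CD137 list. The intergenic share was -24.6 at 3000 bp in the PDGFRα list, and -11.5 and -31.2 in the CD137 list. The share at a gene was 28.0 at 3000 bp in the PDGFRα list, and 12.4 and 31.1 in the CD137 list, where it was 13.9 with centres inside genes, 13.7 within 50 kb and 15.0 with genes of any type, the last chosen after seeing the data. Centres within 1 kb of a start gave 5.13 and 19.4 (PDGFRα), and within 1 kb of either end, a measure chosen after seeing the data, 4.96 and 22.3 (PDGFRα) and 4.73 and 15.2 (CD137). All of these kept the direction found at 2000 bp, apart from the wide share at 3000 bp.

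Among kinds of genes, minus other genes, the immediate early share was 12.5 at 3000 bp in the PDGFRα list and 88.5 in the CD137 list when any overlap of peak and gene counted. The matrix share was 2.08 (PDGFRα) and 0.758 (CD137) at 3000 bp, and the transcription factor share 20.4 at 1500 bp and 6.17 at 3000 bp in the CD137 list. The early embryo share in the CD137 list reversed to -2.56 at 3000 bp, where no member was left. The causes were not tested. The other 44 main alternatives moved by less than the counting interval.

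Depth is unknown and limits every width. No paired analysis was possible because each group has 1 library, and for the same reason leaving out a replicate was not run. Shares near gene starts were not compared for the CD137 list, since too few of the genes at its wide peaks have a start window here.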
